A study of Rattus norvegicus with 14 samples.

Results

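Glutathione transferases join the tripeptide glutathione to reactive or poorly soluble compounds, which are then exported and broken down. The 6 genes described here are Mgst2 and Mgst1 (the microsomal family), Gsta1 (the alpha class), Gstm2 and Gstm1 (the mu class) and Gstp1 (the pi class). Their probe sets, each a group of short probes for 1 transcript, were taken by gene symbol in the platform annotation, which gave 6 probe sets, 1 per gene, of 15866 tested.

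The soluble alpha, mu and pi enzymes act as dimers in the cytosol. The microsomal enzymes lie in membranes and belong to a separate protein family, in which Mgst2 can also make leukotriene C4, an inflammatory lipid. In human, an alpha-class enzyme isomerises a precursor of the steroid hormones, and alpha-class enzymes are abundant in steroid-producing cells of the adult gonad. Gstp1, the placental form of the rat, is known as a marker of early liver tumours.

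The arrays held RNA of fetal rat gonads in 7 groups of 2: embryonic day 13 (E13) testis after 3 days in organ culture, fresh testis at E13, E14 and E16, and fresh ovary at E13, E14 and E16. The cultured testes were kept on floating filters over CMRL medium with insulin, transferrin, bovine albumin, glutamine and antibiotics. Each RNA sample was a pool of 20 to 40 whole gonads, and the 2 pools of a group were independent. The labels name no strain and do not say how embryos were sexed.

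Array medians lay between 59.5 and 69.1 intensity units. Amh, a Sertoli cell hormone, read 477 to 1093 on the cultured, E14 and E16 testis arrays. It read 79.5 and 63.9 in E13 testis and 38.5 or less in ovary. Sry, the testis-determining gene, read 163 and 185 in E13 testis, 45.9 and 37.1 in E14 testis and 13.1 to 28.7 in ovary. On the cultured and E16 testis arrays Sry read 13.4 to 28.2, inside the ovary range, so it does not tell the sexes apart there. Some arrays stood apart. Xist, the RNA that silences an X chromosome in female cells, was high for a testis in replicate 1 of E13, E14 and cultured testis (36.2 to 269), against 1.5 to 4.8 on the other testis arrays, and low for an ovary in E16 ovary replicate 2 (12.8, against 152 to 672 on the other ovary arrays). The 3′ to 5′ ratio of actin, a sign of RNA degradation where it is high, was 2.97 in cultured testis replicate 2 and 3.34 in E16 ovary replicate 1, against 1.47 to 2.13 elsewhere. Both arrays of E16 ovary, and both of cultured testis, thus stood apart in Xist or in actin ratio. Leaving out the arrays of discordant Xist, or those of high actin ratio, keeps only an array of the other kind in these groups. Differences that involve E16 ovary or cultured testis thus have no unmarked array on that side. The chip labels took 3 forms, here numbered 1 to 3, with 6, 3 and 5 arrays. Form 1 was replicate 2 of every group but E13 ovary. Form 2 was replicate 1 of cultured, E14 and E16 testis. Form 3 was E13 testis replicate 1, both E13 ovary arrays and replicate 1 of E14 and E16 ovary. For replicate 1 at E14 and E16, label form and sex thus cannot be told apart, and a block separates them only through the other arrays. The labels do not say whether these forms match separate array runs, and calls are given below also with label form as a block. The labels do not say whether any pool held gonads of both sexes, which would change what its sex labels mean and was not tested; differences that passed are given also without the 4 arrays of discordant Xist.

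Values are deposited intensities on a linear scale. Differences are of log2(intensity + 16), which understates the change of dim probe sets, with the standard error (SE) of 1 limma fit over all arrays. A difference passed when its Benjamini-Hochberg adjusted p over all probe sets was under 0.05. In these whole gonads, fewer cells of a type and less RNA per cell cannot be told apart.

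**Figure D1:**
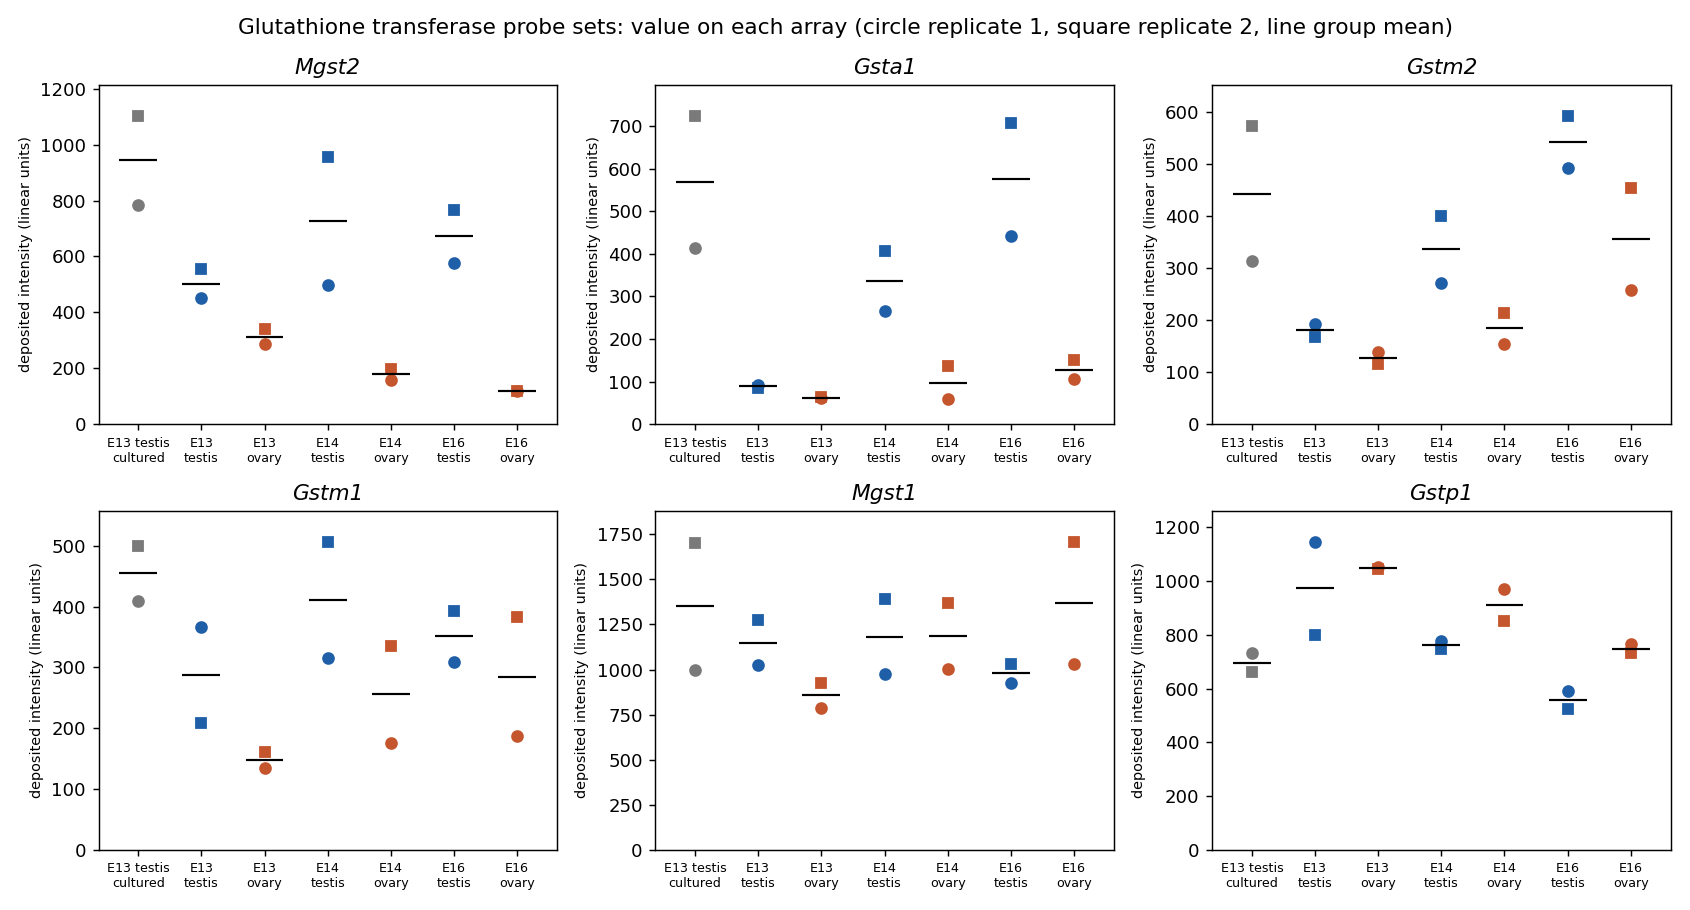
Deposited intensity (linear units, axis from 0) of the 6 probe sets on each of the 14 arrays, by group; circles are replicate 1, squares replicate 2 and lines the group mean. Mgst2 was 451.9 or more on every fresh testis array and 338.4 or less on every ovary array, while the arrays of Mgst1 overlapped between most groups.

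Mgst2 separated the fresh testis arrays from the ovary arrays at every age. It read 452 and 554 in E13 testis, 498 and 957 in E14 testis and 578 and 767 in E16 testis. In ovary it read 285 and 338 at E13, 158 and 197 at E14, and 120.0 and 119.4 at E16. The lowest fresh testis array, 452, thus lay above the highest ovary array, 338. Over all probe sets 2.04% had 6 testis arrays that did not overlap with the 6 ovary arrays, and Mgst2 was the 1 member of 6 among them.

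The sex difference of Mgst2 passed at E14 and at E16 and as the mean over the ages. At E14 it averaged 728 ± 325 in testis and 178 ± 27.0 in ovary (SD, n = 2 each; log2 1.88, SE 0.29, adjusted p = 0.0379 by limma). At E16 its mean was 673 ± 134 in testis and 120 ± 0.4 in ovary (difference of log2 2.33, SE 0.29, adjusted p = 0.00312). Over the ages the mean difference was log2 1.62 (SE 0.17, adjusted p = 0.000787), with 634 ± 192 over 6 testis arrays and 203 ± 90.5 over 6 ovary arrays. At E13 Mgst2 averaged 503 ± 72.1 in testis and 312 ± 37.9 in ovary, which was not a passing difference (log2 0.66, adjusted p = 0.632).

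Within a single label form the Mgst2 difference was as large: replicate 2 of both sexes, which shared a chip label number, read 957 in testis and 197 in ovary at E14 and 767 in testis and 119 in ovary at E16. With label form as a block the adjusted p of Mgst2 was 0.00522 at E14, 0.000618 at E16 and 0.000612 over the ages. Without the 4 arrays of discordant Xist it was 0.0779, 0.0612 and 0.0153, with differences of log2 2.34, 2.33 and 1.82. Without the 2 arrays of high actin ratio the adjusted p of Mgst2 was 0.0736, 0.0262 and 0.00476, with differences of log2 1.88, 2.33 and 1.62. When 1 array was left out, Mgst2 kept its call at E16 and over the ages in 14 of 14 fits. At E14 it kept it in 3 of 14, those without E14 testis replicate 1 or either cultured array. For E14 the adjusted p of Mgst2 was 0.328 when E14 testis replicate 2 was left out, 0.266 or 0.102 when E14 ovary replicate 1 or 2 was, and 0.0656 to 0.074 without any 1 array of E13 or E16.

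The mean of Mgst2 was higher at E16 than at E13 in testis and lower in ovary, and neither difference passed the test. In testis the E16 mean was 673, against 503 at E13 (log2 0.40, 95% interval from -0.24 to 1.04, adjusted p = 0.704 by limma). Both E16 arrays lay above both E13 arrays. In ovary the E16 mean was 120, against 312 at E13 (log2 -1.27, adjusted p = 0.08 by limma), and both E16 arrays lay below both E13 arrays. Of all probe sets 41.3% in testis and 41.4% in ovary likewise had no overlap of these arrays, in either direction. For Mgst2 in ovary, label form as a block gave log2 -1.36 and an adjusted p of 0.0148 by limma. This ovary difference passed in 6 of 26 alternative fits. A direct test of whether the sex difference of Mgst2 had grown between E13 and E16 gave log2 1.67 (SE 0.41, adjusted p = 0.247 by limma). This change passed in 1 of 26 alternative fits, that with label form as a block (adjusted p = 0.0252). After culture, Mgst2 read 785 and 1103, above both fresh E13 testis arrays, a difference that did not pass (log2 0.87, adjusted p = 0.223 by limma). The culture difference passed in 1 of 26 alternative fits, that with label form as a block (adjusted p = 0.0343). Ordered by mean, Mgst2 was highest in cultured testis (944 ± 225), E14 testis and E16 testis. Arrays of E14 testis overlapped with those of both, while both cultured arrays lay above both E16 arrays. E13 testis, E13 ovary, E14 ovary and E16 ovary followed, each with both arrays below those of the group before.

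Mgst1, the other microsomal member, which is abundant in liver endoplasmic reticulum, showed no difference that passed. Its probe set ranged from 789 to 1710 over the 14 arrays, a ratio of 2.17. E16 testis read 924 and 1032, against 1028 and 1710 in E16 ovary. Cultured testis read 1000 and 1700, against 1025 and 1272 in fresh E13 testis. Mgst1 passed in 0 of 14 comparisons by limma, and in 0 before adjustment at p under 0.05. Its mean sex difference was log2 -0.01 with a 95% interval from -0.40 to 0.38. By age the sex difference of Mgst1 was log2 0.41 at E13, -0.01 at E14 and -0.44 at E16. The change from E13 to E16 was log2 -0.85 (95% interval from -1.82 to 0.12). In ovary, E16 minus E13 gave log2 0.63 (95% interval from -0.06 to 1.31). Its arrays did not overlap there, as for 41.4% of all probe sets. Ordered by group mean, neighbouring groups of Mgst1 overlapped down to E16 testis, and E13 ovary lay lowest and just apart (789 and 923).

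Gsta1, the alpha-class member, was high in testis from E14 on and stayed low in ovary. It read 92.9 and 84.5 in E13 testis, 267 and 407 in E14 testis, and 443 and 709 in E16 testis. In ovary it read 60.6 and 62.6 at E13, 58.2 and 136 at E14, and 105 and 151 at E16. At each age both testis arrays lay above both ovary arrays. The E13 testis arrays, however, lay within the range of the ovary arrays at E14.

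In testis Gsta1 rose 6.49-fold by mean intensity, to 576 ± 188 at E16, against 88.7 ± 5.9 at E13 (SD, n = 2 each; log2 2.46, SE 0.37, adjusted p = 0.0114 by limma). E14 against E13 gave log2 1.73 (adjusted p = 0.184). That step passed in 2 of 26 alternative fits, with label form (adjusted p = 0.0386) or replicate number as a block. E16 against E14 gave log2 0.74 with a 95% interval from -0.08 to 1.56. In ovary the E16 mean was 128 ± 32.2, against 61.6 ± 1.4 at E13 (log2 0.88, adjusted p = 0.424), short of the threshold. The testis minus ovary difference of Gsta1 was log2 0.43 at E13 and 1.71 at E14 (adjusted p = 0.149). At E14 it passed in 3 of 26 alternative fits, all with a block, label form among them (adjusted p = 0.0435). The sex difference was log2 2.02 at E16 (SE 0.37, adjusted p = 0.0212) and log2 1.38 over the ages (SE 0.22, adjusted p = 0.00818). That it grew between E13 and E16 did not pass (log2 1.59, SE 0.53, adjusted p = 0.512).

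Arrays of 1 label form gave Gsta1 values of 709 in E16 testis and 151 in E16 ovary, and of 709 in E16 testis and 84.5 in E13 testis. With label form as a block the adjusted p of Gsta1 was 0.00639 for the sexes at E16, 0.0096 over the ages and 0.00335 for testis at E16 against E13. Without the 4 arrays of discordant Xist these were 0.133, 0.0806 and 0.124, with larger differences of log2 2.25, 1.54 and 2.52. Without the 2 arrays of high actin ratio they were 0.113, 0.0244 and 0.0152, with log2 1.79, 1.31 and 2.46. Leaving out E16 testis replicate 1 or 2 gave an adjusted p of 0.0522 or 0.192 for Gsta1 between the sexes at E16, and leaving out E16 ovary replicate 1 or 2 gave 0.132 or 0.0523. For Gsta1 in testis at E16 against E13 it was 0.0635 and 0.091 without E13 testis replicates 1 and 2, and 0.157 without E16 testis replicate 2. The mean over the ages kept its call in 14 of 14 such fits. Near-identical copies of the alpha class can share probes, so the values of Gsta1 are uncertain between copies.

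After 3 days of culture the E13 testis had about the Gsta1 level of fresh E16 testis. Cultured E13 testis read 415 and 725, against 92.9 and 84.5 in fresh E13 testis (log2 2.43, SE 0.37, adjusted p = 0.0101 by limma). Against fresh E16 testis, at 443 and 709, the difference was log2 -0.03 with a 95% interval from -0.85 to 0.79. The comparisons of cultured testis and of E16 testis with E13 testis share the 2 E13 arrays and are not independent. Within label form 1 Gsta1 read 725 in cultured testis and 84.5 in E13 testis, and with label form as a block the adjusted p was 0.00273. It was 0.11 without cultured replicate 2, 0.0629 and 0.0773 without E13 testis replicates 1 and 2, 0.124 without the 4 arrays of discordant Xist, with a difference of log2 2.88, and 0.126 without the 2 of high actin ratio, with log2 2.04. By mean, Gsta1 was highest in E16 testis and cultured testis, which overlapped, and E14 testis lay below cultured testis and above E16 ovary without overlap. E16 ovary overlapped with E14 ovary, and E14 ovary with E13 testis. E13 ovary had the lowest mean, with both arrays below both E13 testis arrays.

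**Figure D2:**
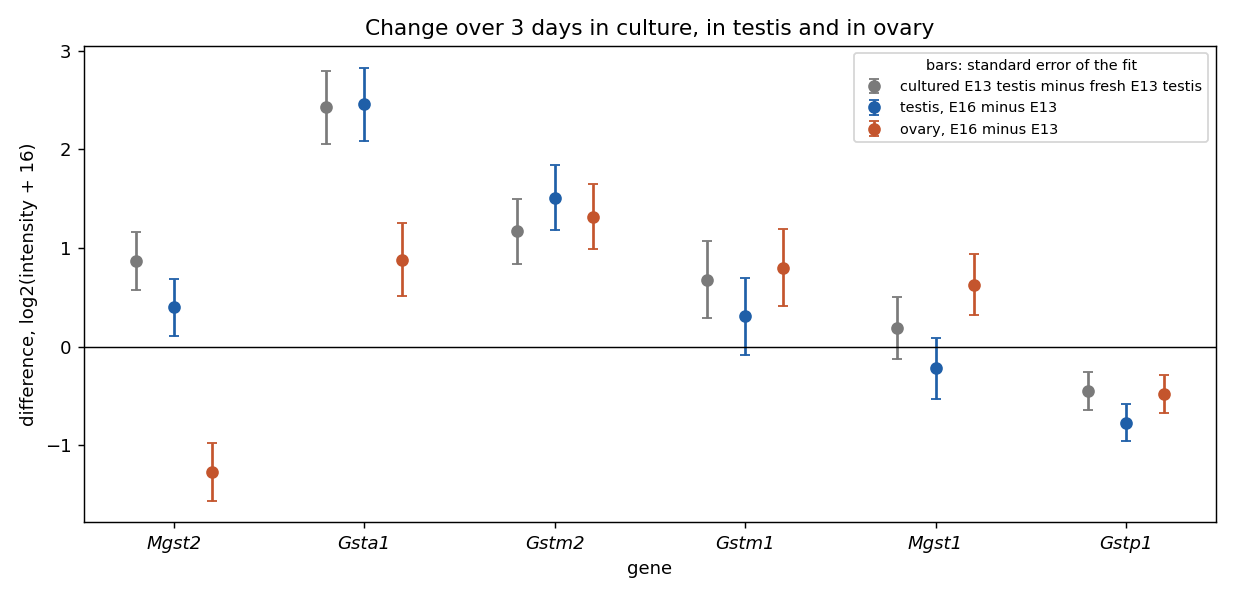
Differences of log2(intensity + 16) with the standard error of the fit, for cultured against fresh E13 testis (grey), E16 against E13 testis (blue) and E16 against E13 ovary (orange). Gsta1 stood at 2.43 and 2.46 in the 2 testis comparisons and at 0.88 in ovary, Mgst2 was above 0 in testis and at -1.27 in ovary, and Gstp1 was below 0 in all 3.

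The mu-class genes Gstm2 and Gstm1, which lie in 1 gene cluster, were higher with age or in testis by sizes that did not pass. Gstm2 read 193 and 167 in E13 testis, 271 and 401 in E14 testis, and 493 and 593 in E16 testis. In ovary it read 139 and 116 at E13, 154 and 214 at E14, and 258 and 453 at E16. In both sexes the E16 arrays lay above the E13 arrays.

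The Gstm2 difference of E16 minus E13 was log2 1.51 in testis (SE 0.33, adjusted p = 0.0617) and log2 1.32 in ovary (SE 0.33, adjusted p = 0.0998). With label form as a block the testis difference of Gstm2 passed, and it passed in 11 of 26 alternatives in all, with an adjusted p from 0.0229 to 0.369. In ovary Gstm2 passed in 2 of 26, with the replicate block (0.0386) and without the 2 arrays of high actin ratio (log2 1.71, adjusted p = 0.0453). After culture Gstm2 read 314 and 572, against 193 and 167 in fresh E13 testis (log2 1.17, adjusted p = 0.135). This difference passed in 1 of 26 alternatives, that with label form as a block (adjusted p = 0.0484). Between the sexes Gstm2 differed by log2 0.45 at E13, 0.81 at E14 and 0.64 at E16, with a mean of 0.63 (SE 0.19, adjusted p = 0.113). The mean passed in 1 of 26 alternatives, that with the replicate block (adjusted p = 0.0495). By mean, the groups of Gstm2 ran from E16 testis (543 ± 70.8) over cultured testis, E16 ovary, E14 testis, E14 ovary and E13 testis to E13 ovary. Neighbours in that order overlapped, save E14 testis with E14 ovary and E13 testis with E13 ovary.

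Gstm1 had wider spread between replicates. It read 367 and 209 in E13 testis, 316 and 507 in E14 testis, and 309 and 393 in E16 testis, against 135 and 160 in E13 ovary, 176 and 335 in E14 ovary, and 187 and 383 in E16 ovary. At E13 the testis arrays lay above the ovary arrays (log2 0.85, adjusted p = 0.64), while at E14 and E16 the sexes overlapped. The mean difference of Gstm1 was log2 0.63 (SE 0.23, adjusted p = 0.167). The group means of Gstm1 ran from 455 ± 64.4 in cultured testis to 148 in E13 ovary, with E13 ovary apart below E14 ovary and overlap of all other neighbours. Gstm1 passed in 0 of 14 comparisons by limma and Gstm2 in 0, with 1 and 7 of 14 under 0.05 before adjustment. Per comparison, 679 to 3177 of all 15866 probe sets were under 0.05 before adjustment. Probes of these related genes may cross-react, which was not tested.

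Gstp1, the pi-class member, ran the other way, with lower values at later ages. It read 1148 and 798 in E13 testis, 778 and 747 in E14 testis, and 592 and 522 in E16 testis. In ovary it read 1054 and 1044 at E13, 971 and 850 at E14, and 767 and 732 at E16. E16 arrays lay below E13 arrays in both sexes, and at E16 both testis arrays lay below both ovary arrays.

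For Gstp1 the difference of E16 minus E13 was log2 -0.77 in testis (SE 0.19, adjusted p = 0.104) and log2 -0.48 in ovary (SE 0.19, adjusted p = 0.38). Cultured testis read 732 and 660, below both fresh E13 arrays (log2 -0.45, adjusted p = 0.359). The sex difference of Gstp1 at E16 was log2 -0.42 (adjusted p = 0.381) and its mean over the ages log2 -0.27 (SE 0.11, adjusted p = 0.211). Gstp1 passed in 0 of 14 comparisons by limma, with 6 under 0.05 before adjustment (679 to 3177 of all 15866 probe sets per comparison). Its group means ran from 1049 in E13 ovary to 557 ± 48.9 in E16 testis, with a gap between E14 ovary and E14 testis, another between cultured and E16 testis, and overlap of the other neighbours.

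Stretches of 250 bases before the gene start were available from RefSeq (assembly GRCr8) for 5 of the 6 members, all but Mgst2. Those of Gsta1 and Gstp1 are shown 5′ to 3′ on the strand of the gene. They were chosen since, within these 250 bases, Gstp1 held a match to the antioxidant response element and Gsta1 did not. Sequence farther upstream was not searched, so a lack of matches holds for this stretch only. Capitals mark motif matches.
Gsta1, chr9:31216533-31216782, minus strand: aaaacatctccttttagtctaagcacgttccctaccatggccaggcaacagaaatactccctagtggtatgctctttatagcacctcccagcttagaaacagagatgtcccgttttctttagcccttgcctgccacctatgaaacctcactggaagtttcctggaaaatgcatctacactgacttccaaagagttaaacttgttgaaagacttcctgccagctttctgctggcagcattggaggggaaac
Gstp1, chr1:210769706-210769955, minus strand: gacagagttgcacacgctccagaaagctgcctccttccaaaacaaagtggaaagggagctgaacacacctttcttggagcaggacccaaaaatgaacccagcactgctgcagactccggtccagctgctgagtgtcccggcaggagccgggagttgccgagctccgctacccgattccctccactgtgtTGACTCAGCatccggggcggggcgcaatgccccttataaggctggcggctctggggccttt

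Both strands were searched for the core of the antioxidant response element (TGACNNNGC), the AP-1 site (TGACTCA), the core of the nuclear receptor site (AGGTCA), its extended form (TCAAGGTCA) and the GATA site (AGATAA). In Gstp1 the element TGACTCAGC lay 61 to 53 bases before the gene start and holds the AP-1 letters within it. Of 27457 promoters of the same length, 10.2% held the antioxidant core and 3.98% the AP-1 site. The Gstm1 stretch held AGGTCA at 11 to 6 bases before the start, a motif in 13.7% of promoters. Those of Gsta1, Gstm2 and Mgst1 held no match to the 5 motifs; the extended receptor site was in 0.368% and the GATA site in 10.0% of promoters. A match is a run of letters and not a shown binding site.

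**Figure D3:**
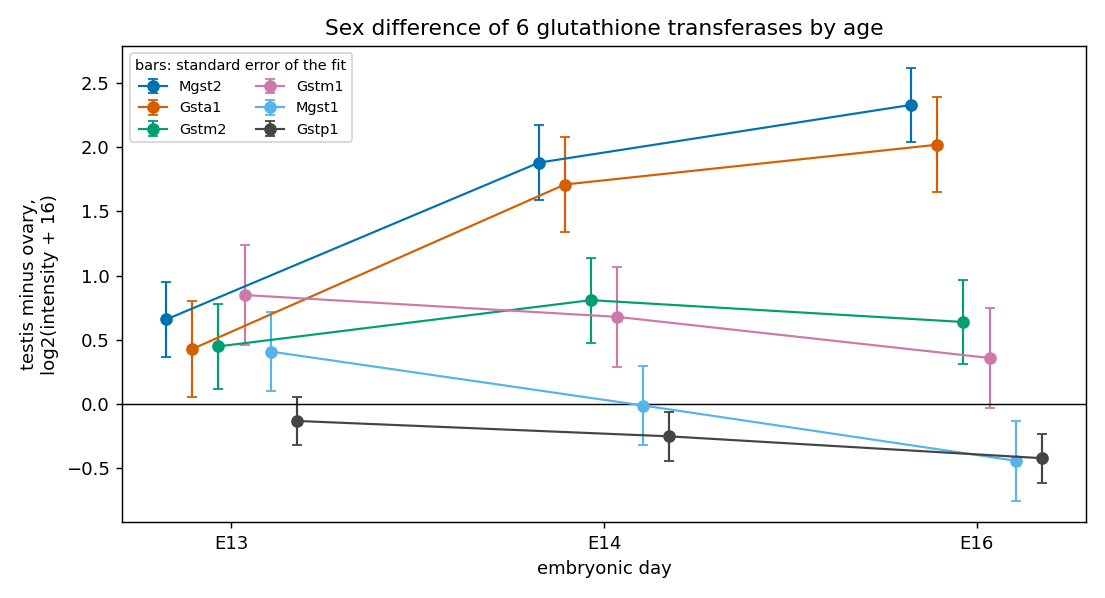
Testis minus ovary difference of log2(intensity + 16) at E13, E14 and E16 with the standard error of the fit, 1 line per gene. Mgst2 and Gsta1 stood at 2.33 and 2.02 at E16, Gstm2 and Gstm1 between 0.36 and 0.85 at all ages, and Gstp1 below 0 at all ages. Left-out arrays turned the values of Gstm1 at E16 (to log2 -0.13) and of Gstp1 at E13 (to log2 0.13). They also turned that of Mgst1 at E14, from log2 -0.01 to as much as 0.25.

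Counted over the 6 members, 0 passed by limma between the sexes at E13 (0.0126% of all probe sets passed), 1 at E14 (0.139%), 2 at E16 (1.74%) and 2 over the ages (2.31%), each higher in testis. In the change of the sex difference between E13 and E16, 0 members passed (0.145% of all probe sets). The median member difference was log2 0.44 at E13, 0.74 at E14 and 0.50 at E16, beside 0.04, 0.02 and 0.05 over all probe sets.

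With age, 1 member passed in testis at E16 against E13 (0.945% of all probe sets), and 0 at E14 against E13 (0.0693%) or E16 against E14 (0.12%). In ovary 0 passed at E16 against E13 (0.889%), and 0 at either single step (0.0% of all probe sets, with 679 and 975 of them under 0.05 before adjustment). Cultured testis had 1 member that passed against fresh E13 testis (1.39%) and 0 against fresh E14 testis (0.277%) or fresh E16 testis (0.0945%). Before adjustment, the comparisons with 0 members passed held 0 to 4 members with p under 0.05, the 4 being in ovary at E16 against E13. Of all 15866 probe sets, 1691 were under 0.05 in that ovary comparison, and 679 to 1691 in the comparisons with 0 members passed. The members were chosen with earlier results of these data known, so these counts are a description.

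Arrays of the groups did not overlap for 5 of 6 members at E13, 4 at E14 and 4 at E16 between the sexes, where 46.2%, 34.6% and 41.8% of all probe sets did not. For E16 against E13 this held for 4 of 6 in testis (41.3% of all probe sets) and 6 of 6 in ovary (41.4%). It held for 5 of 6 in cultured against fresh E13 testis (39.5%).

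Marker sums of gonadal cell types also differed between some of these groups. The summed level of 5 of 5 fetal Leydig cell markers (Hsd3b1, Cyp17a1, Cyp11a1, Star and Insl3, genes of steroid and peptide hormone production) was 4002 to 7844 in E16 testis, against 74.7 to 154 in E16 ovary. It was 3324 to 4380 in cultured testis, against 125 to 174 in fresh E13 testis. In E14 testis, where Gsta1 read 267 and 407, the Leydig sum was 136 to 172, inside the range of E13 testis. In E14 ovary it was 101 to 139. The sum of 4 of 6 Sertoli cell markers (Amh, Aard, Inha and Tesc) was 2904.5 to 2927 in E16 testis and 597 to 664 in E16 ovary, 1687 to 1712 in E14 testis and 349 to 452 in E14 ovary, and 2566 to 3270 in cultured testis, against 414 to 527 in fresh E13 testis. Aard made up most of the Sertoli sum in E16 ovary, with a mean of 509, against 1514 in E16 testis. Amh read 29.2 and 9.6 in E16 ovary. Aard was also among the probe sets most like Gsta1 and Gstm2 across the arrays, as given below. None of these Leydig and Sertoli markers read 0 on any array, and their part in the levels of Gsta1 and Mgst2 was not tested.

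Other cell types varied too. The sum of 4 of 5 pre-granulosa markers (Fst, Bmp2, Lgr5 and Wnt4) was 196 to 221 in E16 testis and 644 to 1040 in E16 ovary. That of 5 of 5 smooth muscle and peritubular markers was 2103 to 2382 in E16 testis and 884 to 1074 in E16 ovary. That of 3 of 5 endothelium markers was 286 to 322 in E16 testis and 426 to 431 in E16 ovary. The sum of 4 of 6 mesonephros and kidney markers was 47.4 to 66.7 in E16 testis, against 110 to 143 in E13 testis, and 25.5 to 40.6 in E16 ovary, against 69.6 to 77.3 in E13 ovary. The sum of 6 of 6 macrophage markers was 449 to 583 in cultured testis, against 239 to 276 in fresh E13 testis. That of 5 of 5 hepatocyte markers was 113 to 257 in E16 testis and 123 to 178 in E16 ovary, and 118 to 224 in cultured testis, against 110 to 181 in fresh E13 testis. That of 5 of 9 red blood cell markers was 1002 to 9194 in cultured testis, against 6416 to 8316 in fresh E13 testis. Of 4 adrenal cortex markers, the 2 measured (Cyp11b1 and Cyp21a1) summed to 332 to 488 in cultured testis, against 29.7 to 49.6 in fresh E13 testis. No germ cell marker of the list had a named probe set. The part of these cells in the results was not tested either.

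Values of Mgst1 and Gstp1 also went with the form of the chip label. In 6 groups 1 array was of label form 1 and the other of another form. In each of these groups the label form 1 array was replicate 2, so label form and replicate number cannot be told apart there. The label form 1 array was the higher one for Mgst1 in 6 of 6 groups (log2 0.16 to 0.76), and for Gsta1, Gstm1, Gstm2 and Mgst2 in 5 of 6, with medians of log2 0.34 to 0.62. For Gstp1 it was the lower one in 6 of 6 groups (log2 -0.52 to -0.06). Over all probe sets 6.5% were higher and 7.22% lower in all 6 groups, with a median of log2 -0.01. The share that was higher in 5 of 6 groups was not counted. The counts of Gsta1, Gstm1, Gstm2 and Mgst2 thus have no background beside them.

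**Figure D4:**
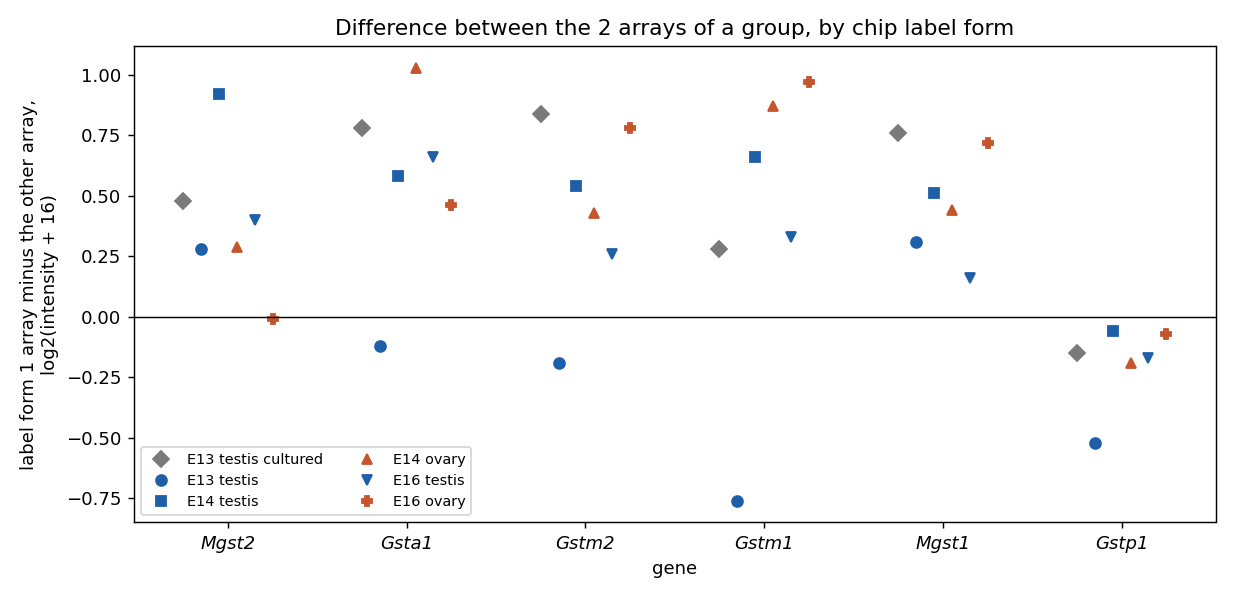
Difference of log2(intensity + 16) between the array of label form 1 and the other array of the same group, for the 6 groups that hold both, with 1 symbol per group. Mgst1 lay above 0 and Gstp1 below 0 in 6 of 6 groups, while E13 testis went against the other groups for Gsta1, Gstm1 and Gstm2.

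Beyond the 6 members, 13 other transferases had a probe set of their own. Gstt3, a theta-class gene, was higher in testis at E16, at 812 ± 15.3 in testis and 475 ± 17.6 in ovary (SD, n = 2 each; log2 0.75, adjusted p = 0.0483 by limma), and over the ages (log2 0.53, adjusted p = 0.0167). It was also higher in cultured testis, at 938 ± 70.4, against 526 ± 80.0 in fresh E13 testis (log2 0.82, adjusted p = 0.0379). Gstt1, of the same class, rose in testis to 166 ± 24.1 at E16, against 24.5 ± 9.5 at E13 (log2 2.18, adjusted p = 0.0174). It stood at 116 ± 27.2 after culture (log2 1.71 against fresh E13 testis, adjusted p = 0.0485). Gstm7, a mu-class gene, rose in ovary to 410 ± 142 at E16, against 125 ± 5.3 at E13 (log2 1.55, adjusted p = 0.0215). No other of the 13 passed in any of the 14 comparisons, among them the alpha-class gene Gsta4, which read 678 and 645 in E16 testis, against 1223 and 1239 in E13 testis (log2 -0.88, adjusted p = 0.151).

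**Figure D5:**
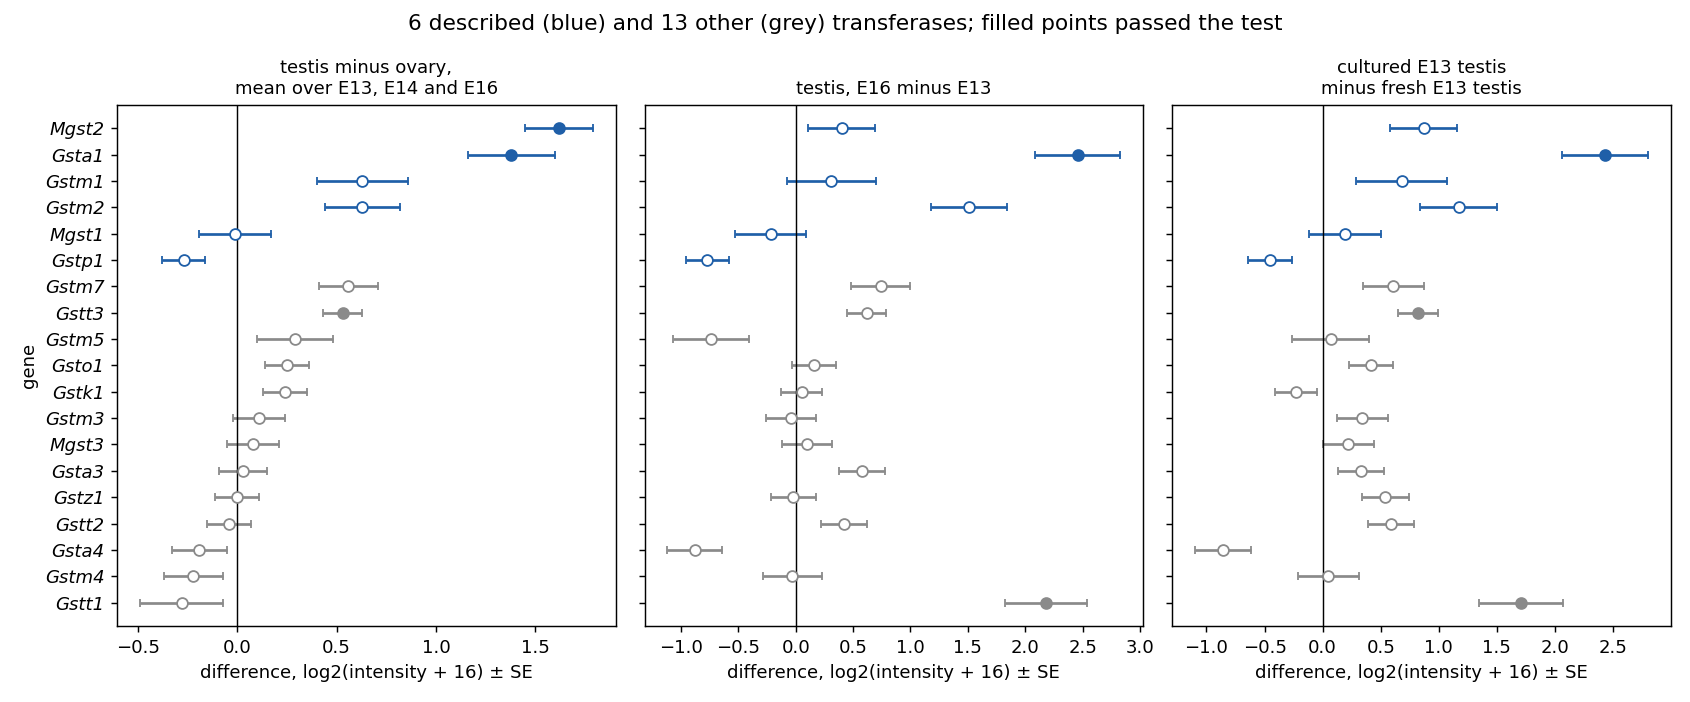
Differences of log2(intensity + 16) with the standard error for the 6 described (blue) and 13 other (grey) transferases between the sexes over the ages (left), in testis at E16 against E13 (middle) and in cultured against fresh E13 testis (right), with filled points for those that passed. Mgst2, Gsta1 and Gstt3 were filled at left, Gsta1 and Gstt1 in the middle, and Gsta1, Gstt1 and Gstt3 at right.

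Of 81 genes listed for glutathione and related detoxifying metabolism, 69 were measured, the 13 other transferases included. Between the sexes 0 of 69 passed by limma at E13, where 8 of 69 and 1236 of all 15866 probe sets were under 0.05 before adjustment. At E14 1 of 69 passed, at E16 3 and over the ages 3, each higher in testis. Of all probe sets 0.0126% passed at E13, 0.139% at E14, 1.74% at E16 and 2.31% over the ages. Aldh1a1, an aldehyde dehydrogenase, passed at E14, at 388 ± 96.0 in testis and 69.1 ± 25.9 in ovary (difference of log2 2.26, adjusted p = 0.032). At E16 it read 687 ± 194 in testis and 66.9 ± 15.3 in ovary (difference of log2 3.07, adjusted p = 0.00161), and Akr7a3, an aldehyde reductase, passed with Gstt3 (log2 0.95, adjusted p = 0.0394). The median over the 69 was log2 0.08 at E16, beside 0.05 over all probe sets. Neither Gclc, Gclm and Gss, which make glutathione, nor Gsr, which recycles it, was among the genes that passed.

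After culture 5 of 69 were higher and 0 lower than in fresh E13 testis, where 1.06% of all probe sets passed as higher. Besides Gstt1, Gstt3 and Aldh1a1 these were Hmox1, the stress-induced heme oxygenase (174 ± 12.4 in cultured and 69.3 ± 20.8 in fresh testis, log2 1.18, adjusted p = 0.0298), and Ephx1, the microsomal epoxide hydrolase (211 ± 98.9 in cultured and 58.9 ± 3.4 in fresh testis, log2 1.53, adjusted p = 0.0367). Ephx1 was the 1 gene of the list that passed against fresh E14 testis (0.277% of all probe sets; log2 1.82, adjusted p = 0.0377). Against fresh E16 testis 0 of 69 passed by limma (0.0945% of all probe sets). Before adjustment 8 of 69 were under 0.05, and 1059 of all 15866 probe sets.

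With label form as a block, 15 of their 16 differences passed, all but that of Akr7a3 over the ages (adjusted p = 0.0749). Without the 4 arrays of discordant Xist, 1 of 16 passed, Aldh1a1 over the ages (log2 1.94, adjusted p = 0.0323), and Gstt3 at E16 gave 0.202, Gstt1 in testis 0.108 and Gstm7 in ovary 0.211. Without the 2 arrays of high actin ratio 7 of 16 passed, the 5 of Aldh1a1, that of Gstt1 in testis and that of Gstm7 in ovary. When 1 array was left out, 3 of 16 kept their call in every fit, all of Aldh1a1, while Gstt3 kept it in 2 of 14 fits at E16, 11 over the ages and 2 after culture. Gstt1 kept it in 10 of 14 for testis and 4 after culture, and Gstm7 in 11. None of the 16 changed direction in any of the 26 alternatives.

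The probe sets most like each member across the 14 arrays were found by Pearson's r among 5327 named probe sets with a mean intensity of at least 100. These r values are a description over arrays that share groups and label forms. Gsta1 was most like Igf1, an insulin-like growth factor (r = 0.953), Tsx, a testis-specific X-linked gene (r = 0.946), and Aard (r = 0.942). Gstm2 was most like Igf1 (r = 0.962), Pls3, an actin-bundling plastin (r = 0.942), and Aard (r = 0.901). Igf1 averaged 299 in E16 testis and 163 in E16 ovary. Mgst2 was most like 6330403K07Rikl (r = 0.944), S100a11, a calcium-binding protein (r = 0.926), and Rcan1, a calcineurin regulator (r = 0.923). Gstm1 was most like Ndn, the imprinted gene necdin (r = 0.934), Trim47 (r = 0.894) and Herc4 (r = 0.885). Mgst1 was most like Hsd17b10, a mitochondrial dehydrogenase (r = 0.906), Atp5f1c, a subunit of the mitochondrial ATP synthase (r = 0.867), and Vcf2 (r = 0.865). Gstp1 was most like Slc35e3 (r = 0.921), Stmp1 (r = 0.914) and Ptpn13, a tyrosine phosphatase (r = 0.911).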

How the data were processed

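RNA of 14 gonad pools was measured on single-channel Affymetrix rat arrays. The authors deposited intensities on a linear scale, 1 per probe set and array, made with biotin-labelled target by standard Affymetrix procedures, per the labels' protocols. The labels do not name the summarising software. The mean after trimming 2% at each end was 125 on every array, so arrays had been scaled alike. Of 15923 probe sets, 57 controls were left out. The platform annotation gave 12783 of the rest 1 symbol, 312 several and 2771 none, and only those with 1 were named; 12748 matched a RefSeq table (GRCr8), used for names. No genome was used.

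Log2(intensity + 16) was fitted with 7 group means in limma 3.58.1 (R 4.3.3; 7 residual and 4.16 prior degrees of freedom) and 14 comparisons were tested, with Benjamini-Hochberg adjustment over 15866 probe sets. The fit was checked on simulated data. The number of arrays limits precision. The pools were separate samples of gonads. Genes named by rule were the 6 members, list genes that passed, and the 3 probe sets most like each member. Gsta4, Gclc, Gclm, Gss and Gsr were named after their values were seen, and Gstm5 and Gstk1 because the sexes moved apart or swapped order. Members and lists were chosen with earlier results of these data known. Alternatives were other offsets, quantile normalization, a filter on dim probe sets, intensity trend, array weights, blocks, left-out arrays and fits of the compared groups alone.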

Additional observations from a re-analysis of the deposited data

Results flagged for a closer look

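For Mgst2 both E16 arrays lay above both E13 arrays in testis (log2 0.40) and below both in ovary (log2 -1.27). Genes were flagged for such a lack of overlap, which 41.3% of all probe sets had in testis and 41.4% in ovary, in either direction. The test of the change in sex difference of Mgst2 gave log2 1.67 (adjusted p = 0.247 by limma).

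Gstm5, a mu-class transferase, went the other way round, with log2 -0.74 in testis, where it read 339 and 441 at E16, against 614 and 698 at E13, and log2 1.02 in ovary, where it read 514 and 671 at E16, against 269 and 295 at E13. Its sex difference was log2 1.17 at E13 and -0.58 at E16. A lack of overlap of its arrays at both ages was the rule that flagged it, and is no added finding. Between the sexes 46.2% of all probe sets did not overlap at E13 and 41.8% at E16, in either direction. The test of the change in sex difference gave log2 -1.75 (adjusted p = 0.312 by limma).

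The sex difference of Gstt1, flagged by the same lack of overlap, was log2 -0.98 at E13 and 0.67 at E16 (change of log2 1.65, adjusted p = 0.469 by limma). For Gstk1, the mitochondrial and peroxisomal kappa-class transferase, it was log2 0.38 at E13, 0.39 at E14 and -0.07 at E16; the change from E13 did not pass (adjusted p = 0.838 by limma) and that from E14 was not tested.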

How the results depend on the processing

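Of 84 member differences, 23 turned direction under 1 or more of 26 alternatives, none of which passed as reported or when turned; the largest of the 23 was log2 -0.49 (Gstm1, change in sex difference). Among those the text prints, Mgst1 between the sexes ranged from log2 -0.13 to 0.25 over the ages and from -0.26 to 0.25 at E14. Gsta1 in cultured against E16 testis ranged from -0.42 to 0.36. Gstm1 between the sexes at E16 ranged from -0.13 to 0.84, and Gstp1 at E13 from -0.39 to 0.13. Within label form 3, Gstp1 at E13 was log2 0.12 and 0.13 higher in testis. The mean sex difference of Mgst2 passed in 26 of 26 (log2 1.41 to 1.82). Members that passed at E14 (1 as reported) numbered 0 with an offset of 1 or 64, with array weights, without the 4 arrays of discordant Xist, without the 2 of high actin ratio and with the compared groups alone, and 2 with label form as a block, chip label number as a random block or the replicate block. At E16 (2 as reported) they numbered 1 with an offset of 1 or without the 2 arrays, and 0 without the 4 or with the compared groups alone. Over the ages (2) there was 1 without the 4 arrays and 3 with the replicate block, where Gstm2 was added. The change in sex difference (0) and testis at E14 against E13 (0) each had 1 with label form as a block, and the step in testis also with the replicate block. Testis at E16 against E13 (1) had 0 without the 4 arrays and 2 with the filter on dim probe sets, intensity trend, array weights, any of the blocks, or without the 2 arrays. Ovary at E16 against E13 (0) had 1 with the filter, label form or chip label number, or without the 2 arrays, and 2 with the replicate block. Culture against fresh E13 testis (1) had 3 with label form as a block and 0 without the 4 or 2 arrays or with the compared groups alone. When 1 array was left out, the counts were 0 to 1 at E14, 1 to 2 at E16, 2 to 2 over the ages, 0 to 2 for testis and 0 to 1 for ovary at E16 against E13, and 0 to 1 for culture. The cause was not tested, except that fits with fewer arrays have fewer degrees of freedom.

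Over all probe sets, 22 passed at E14 (0 to 93 over the alternatives), 276 at E16 (11 to 594), 366 over the ages (48 to 815), 150 for testis at E16 against E13 (6 to 252) and 221 for culture (5 to 378). The replicate numbers are not shown to pair the arrays: replicate differences correlated at r = 0.107 to 0.53 between groups other than E13 ovary and at -0.0534 to 0.0655 with it. E13 ovary held no array of label form 1, while in every other group replicate 2 was of that form. These correlations thus cannot tell replicate number from label form, and the replicate block and the label form block are not independent checks.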
